A study of Mus musculus with 182 samples.

Results

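Lck and Cd2, a pair of genes best known from T cells, were followed across 182 single germinal centre B cells from mouse spleen. They are 2 of the 17034 gene symbols in the table. Both were chosen by values measured in these same cells (Lck for the large share of cells that held it, Cd2 for its place at the dark zone end of a score of zone genes), so the levels, shares and relations given here describe them and are not tests. The mice were C57BL/6 animals given 100 µg of NP(23)-KLH, a hapten on a carrier protein, with 50% alum and 1 µg of LPS, and spleens were taken on day 13. Before sorting, cells bearing CD3, CD4, CD8, CD11c or IgD were held back on magnetic columns. Live B220+ Fas+ cells with high GL7 were then sorted, and the sample labels add binding of NP, which the study's gate lists only as a stain. The Fluidigm C1 system isolated the cells, and each gave 1 library by SMARTer and Nextera XT chemistry. There was 1 group, with no naive, T cell or non-germinal-centre sample beside it. The labels name no animals, so the 182 cells count as 1 biological sample, and intervals over cells cover counting error only.

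Lck is a tyrosine kinase of the Src family. In T cells it sits on the tails of the coreceptors CD4 and CD8 and phosphorylates the signalling motifs of the CD3 and zeta chains, to which the kinase ZAP-70 then binds. In B cells the corresponding step at the antigen receptor is carried by the Src family kinases Lyn, Blk and Fyn, which phosphorylate CD79A and CD79B so that Syk can bind. Cd2 encodes an adhesion and costimulatory receptor of the immunoglobulin superfamily. Its ligand in mice is CD48, and mouse B cells, unlike most human B cells, carry CD2 on their surface.

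Lck lies on the minus strand of GRCm38 (the mm10 build) at chr4:129548344-129573641, and Cd2 on the minus strand at chr3:101275899-101287939. Because B cells express close relatives of Lck, its transcripts were compared with those of every other annotated gene. No stretch of 75 bases, the length of the reads, in any of its 8 transcripts was identical to one in a transcript of another gene, and the same held for stretches of 31 bases. The 3 Cd2 transcripts shared no stretch of 75, 31 or 21 bases with another gene, while Lck shared 13 stretches of 21 bases, with Lyn, Mir8119, Pdgfrb and Tie1. The most similar 75-base stretch between Lck and Blk had 64 identical bases and 11 differences. It lies in exon 10 of 12 of the Lck transcript, at chr4:129551764-129551838 on the minus strand, and codes for part of the kinase domain. It is shown because it is where reads of the B cell kinase come closest to those of Lck, with the differing bases in capitals.

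Lck: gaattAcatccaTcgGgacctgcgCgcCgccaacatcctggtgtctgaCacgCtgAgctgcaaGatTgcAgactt

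Blk: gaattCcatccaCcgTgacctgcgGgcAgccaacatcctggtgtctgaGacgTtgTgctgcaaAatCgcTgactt

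The longest identical run between them was 20 bases. For Lyn, the Src family gene found in the most cells, the closest stretch had 62 identical bases and 13 differences, with a longest run of 13. It lies in exon 12, at chr4:129548812-129548886.

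Lck: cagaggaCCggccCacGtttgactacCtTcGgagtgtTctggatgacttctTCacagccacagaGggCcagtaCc

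Lyn: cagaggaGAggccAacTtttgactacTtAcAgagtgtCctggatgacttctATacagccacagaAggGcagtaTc

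The closest stretches of Src, Fgr, Fyn, Yes1 and Frk had fewer identical bases than that of Lyn. The treatment of reads that fit 2 genes is not given in the sources used here.

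Each entry of the table is a normalized signal per gene and cell of unknown base unit, so a value is read here against the same gene in other cells, never against another gene. The columns fell into 2 sets, cells 1 to 96 and cells 97 to 182. Any 2 cells of 1 set had the same value in at least 61.9% of genes, while no gene had an equal value above 0 in cells of different sets. Whether the sets are capture runs or animals is not given, so results are shown for each. The number of reads per cell is unknown. A median of 2666 genes (1904 to 4495) lay above their lowest value in a cell of the first set, and 2188.5 (980 to 5149) in the second. The count of genes at a value of 1 or more ran from 1873 to 1946 in the first set and from 995 to 1741, with a median of 1690, in the second. It was thus nearly constant in the first set, and some cells shared an exact value, such as Lck at 312.763 in cells 98 and 174. Values may have been fitted to a common scale within a set, which was not tested. A value, and detection, may then reflect the place of a gene within its cell more than an amount of RNA. Detected here means a value of 1 or more.

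Lck was detected in 99 of 182 cells, or 54.4% (exact Clopper-Pearson 95% interval 46.9 to 61.8). Its values ran from 1.01 in the lowest of those cells over a median of 14.5 to 3565 in the highest, cell 44, which belongs to the first set. The next cell stood at 2836, so no single cell set the upper end. Detection was 58 of 96 cells in the first set (60.4%, 49.9 to 70.3) and 41 of 86 in the second (47.7%, 36.8 to 58.7), intervals that overlap. Of all gene symbols, 539 (3.16%) were detected in at least as many cells as Lck. For comparison, 31.8% of all gene symbols were detected in at least 10% of cells.

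The normalized values of Lck in the detected cells covered a wide range rather than a single level. In 36 cells Lck lay at 1 or more but under 5, in 27 cells at 5 or more but under 100, and in 36 cells (19.8%, 14.3 to 26.3) at 100 or more. The bound of 100 was chosen after the values were seen. Cells at 100 or more numbered 17 of 96 in the first set and 19 of 86 in the second, with overlapping intervals. The lowest band was less even. It held 27 of the 58 cells with Lck in the first set (46.6%) and 9 of the 41 in the second (22.0%). The median among detected cells was accordingly 5.27 in the first set and 42.8 in the second. At a value of at least 5, Lck was found in 63 cells (34.6%), of which 31 were in the first set and 32 in the second. The first set also had values close to the threshold: 10 cells lay between 0.5 and 1, the highest of them at 0.998, and 15 cells between 1 and 2, the lowest at 1.01. The second set had 2 cells and 3 cells in those ranges.

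Cd2 was detected in 65 of 182 cells, or 35.7% (28.8 to 43.1), and 1280 gene symbols (7.51%) reached that share. Values among those cells ran from 1.16 over a median of 10.1 to 4661 in cell 41 of the first set, with 3772 in cell 179 of the second. Detection was 30 of 96 cells in the first set (31.2%, 22.2 to 41.5) and 35 of 86 in the second (40.7%, 30.2 to 51.8). Here the order of the sets was the opposite of that for Lck, again with overlapping intervals. The bands held 18 cells under 5, 32 cells from 5 to under 100, and 15 cells (8.24%, 4.69 to 13.2) at 100 or more, 7 in the first set and 8 in the second. At a value of at least 5, Cd2 was found in 47 cells (25.8%). Near the threshold, 5 cells of both sets together lay between 0.5 and 1.

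**Figure D1:**
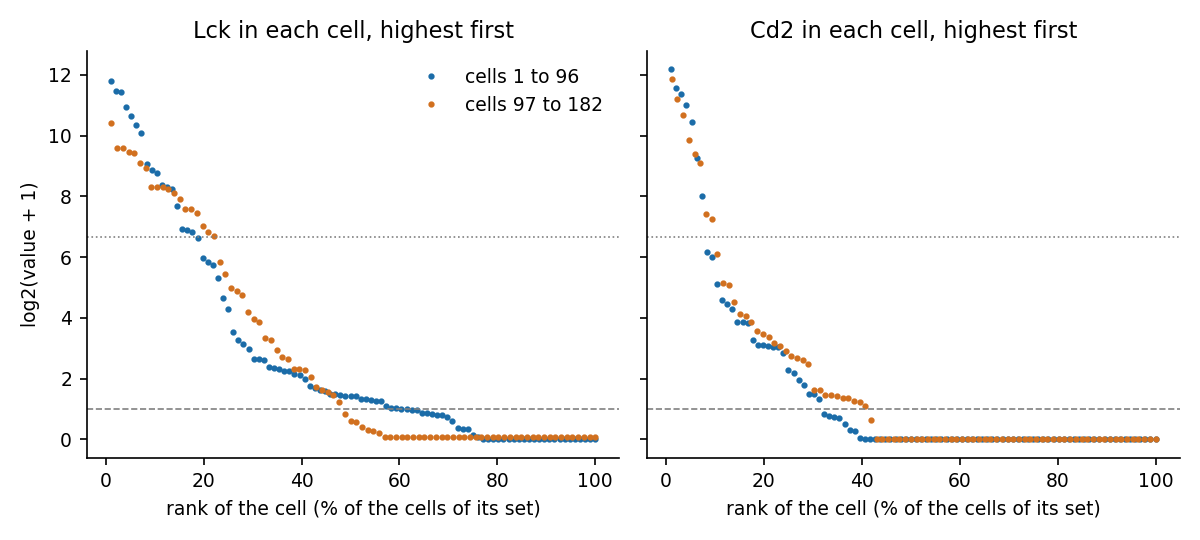
Value of Lck (left) and Cd2 (right) in every cell on a log2(value + 1) scale, with the cells of each set ordered from highest to lowest and placed by rank as a percentage of the 96 or 86 cells. Each point is 1 cell, the dashed line marks a value of 1 and the dotted line a value of 100. Lck stands above 100 in 17 and 19 cells of the sets and Cd2 in 7 and 8, and between the lines the first set has a long run of Lck values just above 1 that the second lacks.

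Lck and Cd2 occurred in the same cell about as often as independence would give, but were never both high. Both were detected in 32 cells, Lck alone in 67, Cd2 alone in 33 and neither in 50. Were the genes independent, 35.4 cells would hold both, so the observed count was 0.905 times that number. Its exact interval runs from 0.636 to 1.23 times and includes 1. In the first set 18 cells held both against 18.1 from independence, and in the second 14 against 16.7. At a value of at least 5, 14 cells held both against 16.3.

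No cell held both genes at 100 or more. The 36 cells with Lck at 100 or more and the 15 cells with Cd2 at 100 or more would share 2.97 cells under independence, and a count of 0 has an exact upper limit of 2.01% of the 182 cells. This count alone therefore cannot be told from independence at this number of cells. Among the 36 cells high in Lck, Cd2 was detected in 7 (19.4%), with a highest value of 34.1. Among the 15 cells high in Cd2, Lck was detected in 6 (40.0%), with a highest value of 55.7. Spearman's rho of Lck with Cd2 was -0.15 over all 182 cells, -0.18 in the first set and -0.13 in the second. Pearson's r of log2(value + 1) was -0.19, and rho was -0.13 after removal of the 2 cells whose Lck lay farthest from its median. These are weak correlations in sparse values across cells of 1 sample, and no p is given for them. Held against the 4637 genes detected in at least 10% of the cells of each set, the mean rho of -0.15 was the 84th from the lowest for Lck and the 147th from the lowest for Cd2.

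**Figure D2:**
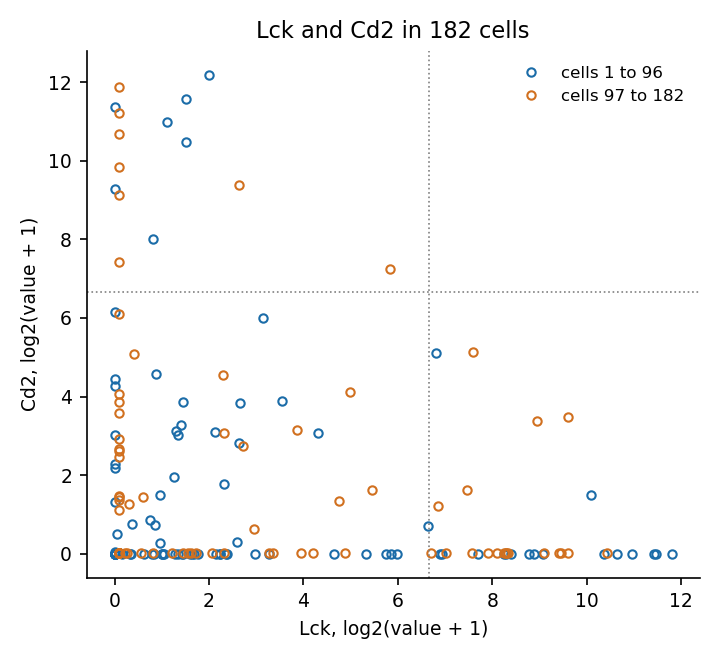
Cd2 against Lck in each of the 182 cells, both on a log2(value + 1) scale, with 1 circle per cell and the colour giving the set. Dotted lines mark a value of 100 for each gene, and the upper right field, where both genes would be at 100 or more, holds 0 cells.

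The other genes of T cells did not share the wide detection of Lck and Cd2. Of 51 genes in 4 T cell lists, 35 have a row in the table, Lck and Cd2 among them, and the other 16, such as Cd3e, Cd3g, Trac, Cd8a and Cd5, were not analysed here. The remaining 33 genes had a median share of 1.10% of cells. Of these, 6 were detected in 0 cells, each with an exact upper limit of 2.01%: the CD3 chain gene Cd3d, the coreceptor gene Cd4, the kinase gene Txk, the inhibitory receptor gene Ctla4, the T cell transcription factor gene Bcl11b and the cytokine gene Il21. Only 3 of the 33 reached 10% of cells. They were Tox, a nuclear factor of T cell development, in 31 cells (17.0%), Lcp2, the adaptor SLP-76, in 24 (13.2%), and Lef1, a Wnt pathway transcription factor that early B cells also use, in 22 (12.1%).

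The genes that act directly with Lck in a T cell were rare. Cd247, which encodes the zeta chain, was detected in 4 cells, and 1 of these cells held Lck. Zap70, the kinase that binds the phosphorylated zeta chain, was detected in 2 cells, both with Lck. The adaptor gene Lat was detected in 7 cells. Among the receptors on the T cell surface, the IL-7 receptor gene Il7r was detected in 12 cells, Cd27 in 5, Cd28 and Thy1 in 3 each and Icos in 2.

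**Figure D3:**
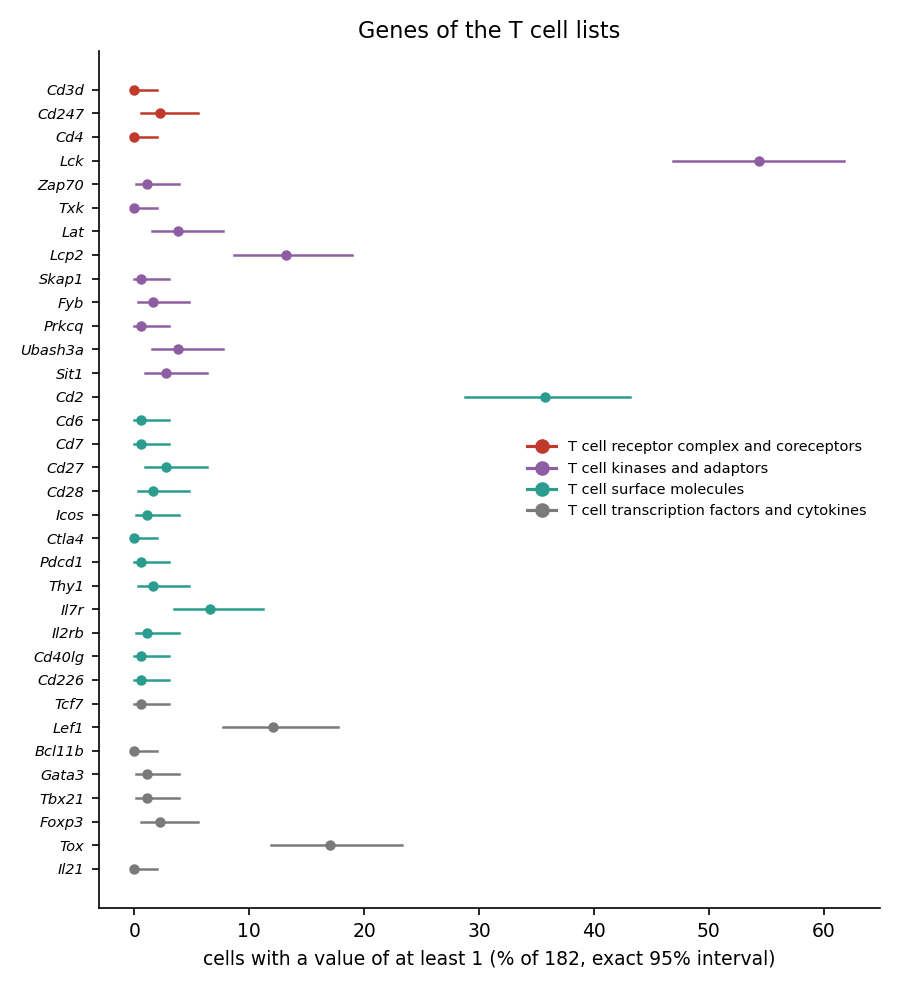
Share of the 182 cells in which genes of the T cell lists were detected, with 1 row per gene (points), with its exact 95% interval (lines), coloured by list. Lck at 54.4% and Cd2 at 35.7% stand apart from the other genes, whose highest share is 17.0% for Tox.

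Other T cell genes were somewhat more frequent in cells with Lck, within overlapping intervals. At least 1 of the 33 genes was detected in 62 of the 99 cells with Lck (62.6%, 52.3 to 72.1) and in 43 of the 83 cells without (51.8%, 40.6 to 62.9). The direction was the same in the first set (58.6% against 47.4%) and in the second (68.3% against 55.6%). At least 2 of them were detected in 21 cells with Lck (21.2%) and 16 without (19.3%). For Cd2 the shares with at least 1 gene were 56.9% of 65 cells with it and 58.1% of 117 cells without. By single gene, Lat was detected in 6 cells with Lck and 1 without, Ubash3a, a negative regulator of T cell receptor signalling, in 6 and 1, and Sit1, a transmembrane adaptor of T cells, in 4 and 1. Lcp2 went the other way, with 9 and 15 cells, and Cd28 was found in 0 and 3. All of these counts are small.

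Only 8 cells had 3 or more of the 33 genes, and 7 of these held Lck and 0 held Cd2. In 3 of the 8, Lck stood above 100, at 313, 684 and 703. The most, 5 genes, were in cell 24, where Lck was at 0. Each of the 8 cells still held between 5 and 8 of 9 B cell markers. Of 18 T cell markers, 11 have a row in the table, and at least 1 was detected in 17 cells with Lck (17.2%) and in 10 without (12.0%). No cell had 3 of them and 2 cells had 2. Those were cell 168, with Cd28 and Thy1, in which Lck was at its lowest value, and cell 171, with Zap70 and Icos, in which Lck was at 2.07. Natural killer cell genes were as rare, since each of the 6 in the table was detected in at most 1.10% of cells. The 8 myeloid genes had a median share of 3.30%, with the highest for Cst3, a secreted protease inhibitor found in many cell types (37.4%).

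The cells that held Lck or Cd2 carried the B cell markers of the sort. Of the 9 markers, among them Cd79a, Cd79b, Ms4a1, Cd22, Pax5, Ebf1, Cd74 and H2-Ab1, every one of the 99 cells with Lck had at least 5 and the median was 8, the same median as in the 83 cells without. Cd79b, a chain of the B cell receptor complex, was detected in 98 of the 99 cells, and Ms4a1, which encodes CD20, also in 98. The 36 cells with Lck at 100 or more had at least 6 markers each, with Cd79b and Ms4a1 in all 36. The 65 cells with Cd2 also had at least 6 each, with Cd79b and Ms4a1 in all 65. Over all 182 cells, 181 had at least 5 markers, so the label of the sort was met by its markers. When the 40 cells with at least 2 other T cell genes or a T cell receptor gene were left out, Lck was detected in 54.2% and Cd2 in 37.3% of the remaining 142 cells.

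The number of genes found in a cell went opposite ways in the sets. In the first set the median was 2593 genes above their lowest value in cells with Lck and 2827.5 in cells without, and in the second 2214 and 2094. For Cd2 the medians were 2434.5 and 2766.5 in the first set and 2259 and 2111 in the second. Cells with either member thus had fewer genes in the first set and more in the second. Spearman's rho with the number of genes found was -0.08 and 0.24 in the sets for Lck and -0.16 and 0.12 for Cd2. With a term for the number of genes found and the set, the rho of Lck with Cd2 was -0.15, as it was without.

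The Src family kinases of B cells were set beside Lck. Lyn was detected in 124 cells (68.1%), Blk in 94 (51.6%), Fyn in 38 (20.9%), Fgr in 17 (9.34%), Yes1 in 2 and Src in 0. Shares depend on transcript length and level, so they are not a ranking of expression. Lyn was in 68.7% of cells with Lck and 67.5% of cells without, and Blk in 55.6% and 47.0%. Their rho with Lck was 0.06 and -0.11 for Lyn in the 2 sets, and -0.04 and -0.04 for Blk. The genes around Lck in the genome were looked at in the same way. Hdac1, 5630 bases away, was detected in 73 cells, 32 of them with Lck against 39.7 from independence, and Fam167b, 3173 bases away on the other side, was detected in 14 cells, 9 of them with Lck. The nearest gene to Cd2 with a row in the table, Igsf3, was detected in 2 cells.

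To find the genes most like each member, Spearman's rho was taken within each set over the 4637 genes detected in at least 10% of the cells of both sets, and a gene was called related when rho was at least 0.15 in size with the same sign in both. Lck had 18 genes called upward (0.388%) and 21 downward (0.453%). Cd2 had 105 upward (2.26%) and 51 downward (1.10%). With a term for the number of genes found, the Lck calls were 27 upward and 50 downward, 29 of them among the first 39. Across genes, the rho of the first set and that of the second were themselves correlated at -0.03 for Lck and 0.13 for Cd2, and had the same sign for 48.3% and 52.3% of genes. For Lck the sets thus gave nearly unrelated orders of genes, and for Cd2 only weakly related ones. The names below, for both members, are extremes picked from the 4637 genes, and their values describe these cells and no more.

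For Lck the highest mean rho belonged to Elk3, a transcription factor of the ETS family, at 0.22 and 0.32 in the sets. Elk3 was detected in 23 of the 99 cells with Lck (23.2%) and in 5 of the 83 without (6.02%). Next came Tbl1xr1 (0.17 and 0.33), a corepressor subunit, Gen1 (0.14 and 0.34), a nuclease that resolves DNA junctions, and Sbf1 (0.25 and 0.21). The other 6 of the 10 highest were Hnrnpa2b1, Parp8, Pnn, Gadd45b, Hsbp1 and Ccdc101. Of the 10, Gen1, Pnn (0.11 and 0.30), Gadd45b (0.28 and 0.13), Hsbp1 (0.07 and 0.34) and Ccdc101 (0.09 and 0.32) were not called, since rho was under 0.15 in 1 set. Gadd45b, a stress-response gene, was detected in 44.4% of cells with Lck and 25.3% of cells without.

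At the other end stood Pcna, the sliding clamp of DNA replication, with -0.25 and -0.30. Pcna was detected in 27 cells with Lck (27.3%) and 45 without (54.2%). Put the other way, Lck was detected in 27 of the 72 cells with Pcna (37.5%, 26.4 to 49.7) and in 72 of the 110 without (65.5%, 55.8 to 74.3). These shares were 45.0% and 71.4% in the first set and 28.1% and 59.3% in the second, with overlapping intervals in each. Pcna was picked as the lowest of 4637 genes, among those with the same sign in both sets. The gap and its shared order therefore follow from that choice and support nothing. Rbbp4, a histone-binding subunit of chromatin complexes, had -0.25 and -0.27, and Tpr (-0.21 and -0.26) and Clta (-0.23 and -0.23) were also called. Smchd1, the other of the 5 lowest, was not, with -0.08 and -0.45. In the list of 15 division genes Pcna was the only one called, and the members went both ways, with 8 positive and a median mean rho of 0.00. Among its genes of DNA synthesis, Rrm2, a subunit of ribonucleotide reductase, was detected in 43.4% of cells with Lck and 62.7% of cells without (rho -0.07 and -0.14 in the sets). Uhrf1, which helps to copy DNA methylation, was in 61.6% and 71.1% (-0.06 and -0.11), and Tyms, the thymidylate synthase gene, in 9.09% and 19.3% (-0.28 and 0.04). Mcm5, part of the replicative helicase, was in 42.4% and 49.4% (-0.13 and 0.13). The division markers Mki67 and Top2a had -0.07 and 0.19, and -0.10 and 0.25.

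For Cd2 the highest mean rho belonged to Itm2b, a membrane protein gene, at 0.44 and 0.35. Itm2b was detected in 26 of the 65 cells with Cd2 (40.0%) and in 17 of the 117 without (14.5%). Ppp3ca, the catalytic subunit of the phosphatase calcineurin, had 0.42 and 0.30. Faim3, which encodes the Fc receptor for IgM, had 0.35 and 0.28 and was detected in 50.8% of cells with Cd2 and 23.1% of cells without. Spib, a transcription factor of the B lineage, had 0.35 and 0.23 and was detected in 80.0% and 52.1%. The others among the 10 highest were 4930523C07Rik, the tetraspanin gene Cd53, Pml and Sp100 of the nuclear bodies, Klf13 and Cd79a, a chain of the B cell receptor complex (0.30 and 0.28). Lowest were Ncl, which encodes nucleolin (-0.28 and -0.30, in 81.5% of cells with Cd2 and 94.9% without), Usp1, Sf3b2, Basp1 and Pcyt2.

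**Figure D4:**
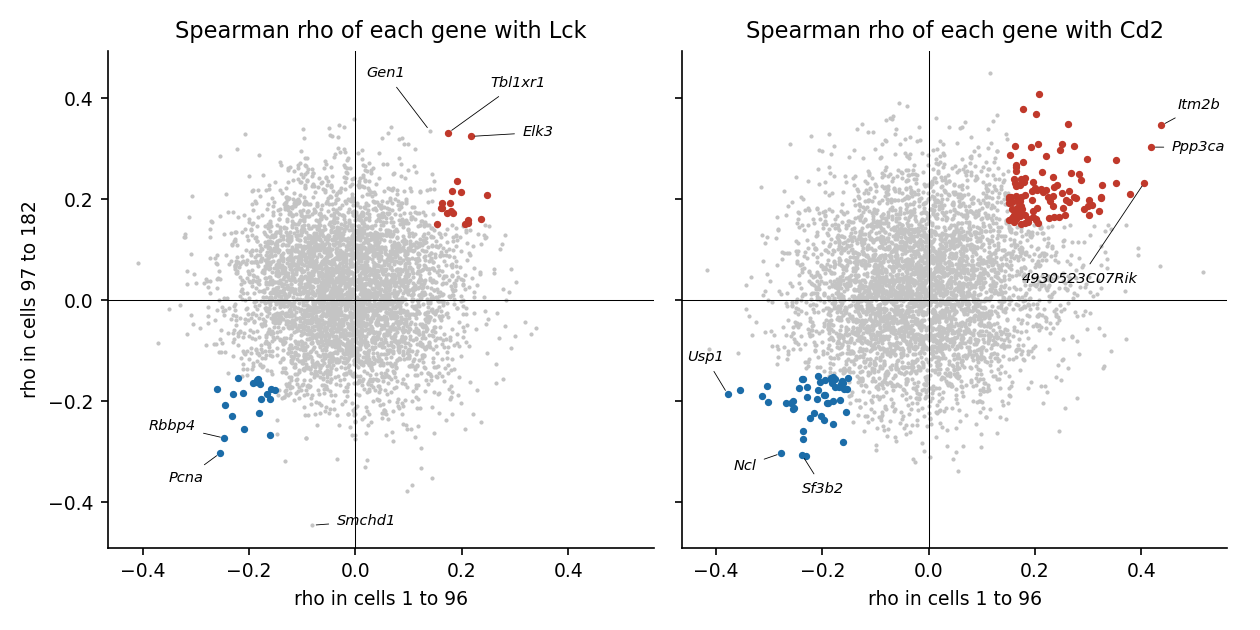
Spearman's rho of each of 4637 genes with Lck (left) and Cd2 (right), in cells 1 to 96 (horizontal axis) against cells 97 to 182 (vertical axis). Each point is 1 gene, red and blue mark the genes called upward and downward, and the 3 genes with the highest and the 3 with the lowest mean rho are named. Coloured points number 18 and 21 for Lck and 105 and 51 for Cd2.

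The gene lists gave different values for the 2 members. The shares of all 4637 genes called, to set beside the counts, were 2.26% upward and 1.10% downward with Cd2 and 0.388% and 0.453% with Lck. With Cd2, 14 of 17 B cell identity genes had a positive mean rho, with a median of 0.14 beside 0.00 for all 4637 genes, and 4 were called upward: Cd79a, Cd79b (0.16 and 0.31), Spib and Ly6d (0.27 and 0.25). With Lck, 5 of the 17 were positive, with a median of -0.02, and 0 were called. Among 18 genes of germinal centre B cells, 7 were positive with Cd2 (median -0.06) and 2 were called downward, Basp1 (-0.23 and -0.31) and Nuggc (-0.15 and -0.15). With Lck, 14 of the 18 were positive, with a median of 0.02, and 0 were called. The 17 genes of B cell receptor signalling that could be ranked had medians of 0.00 with Lck and 0.03 with Cd2, and 0 were called with either. In the division list, 1 of 15 genes was positive with Cd2 (median -0.07) and 0 were called. No test of a list was run, so nothing is claimed as particular to one.

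**Figure D5:**
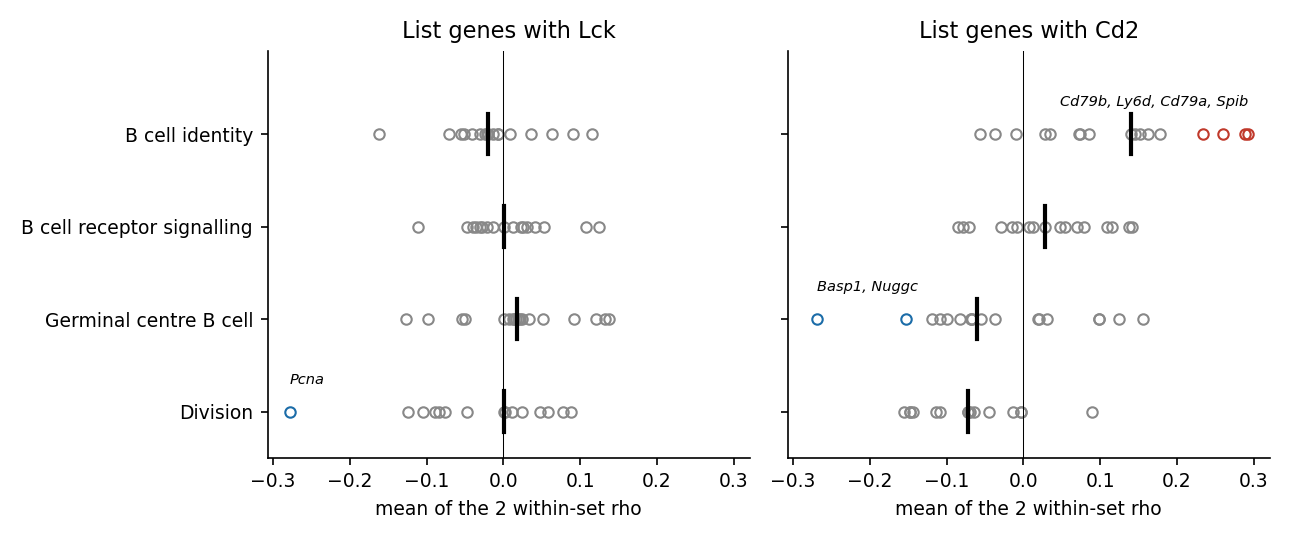
Mean of the 2 within-set rho of each gene of 4 lists with Lck (left) and Cd2 (right). Each circle is 1 gene, black bars are list medians, and red and blue circles are genes called upward and downward, which are named. The median for B cell identity genes is 0.14 with Cd2 and -0.02 with Lck.

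Known partners of the members were counted next. Cd48, the ligand of CD2, was detected in 62 cells, and in 38.5% of cells with Cd2 against 31.6% of cells without, with overlapping intervals. Put the other way, Cd2 was detected in 31.2% of cells with Cd48 and 31.2% of cells without in the first set. In the second set these shares were 50.0% and 35.7%, with overlapping intervals. Of the 8 ranked genes among the partners of CD2 and the SLAM family, a receptor family related to it, 6 were positive with Cd2. None was called, beside 2.26% upward and 1.10% downward of all genes. Of 12 ranked regulators and adaptors of Lck, 7 were positive and 1 was called, downward (0.453% of all genes): Hsp90aa1 (-0.18 and -0.16), a chaperone of kinases. The lists are too short for these counts to be read against the shares over all genes. Sla, a Src-like adaptor found in too few cells to be ranked, was in 15 cells with Lck (15.2%, 8.74 to 23.8) and 3 without (3.61%, 0.752 to 10.2), and the adaptor gene Lax1 in 43.4% and 28.9%. Csk, the kinase that holds Src family members inactive, was detected in 81.8% of cells with Lck and 75.9% of cells without, and Ptprc, which encodes the phosphatase CD45, in 96.0% and 88.0%. Others of this list went the other way. Cdc37 was detected in 28.3% of cells with Lck and 41.0% without, Lime1 in 17.2% and 22.9%, and Cblb in 11.1% and 14.5%.

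Cd2 was more frequent in cells that held transcripts of IgD. Ighd, the constant gene of IgD, had rho 0.26 and 0.17 with Cd2 and was called upward, and Ighg2c had -0.16 and -0.18 and was called downward. The 6 ranked heavy chain constant genes held no other call, beside 2.26% upward and 1.10% downward of all genes. That list is too short for its calls to be read against those shares. Of the 42 cells with Ighd, 24 held Cd2 (57.1%, 41.0 to 72.3), against 41 of the 140 without (29.3%, 21.9 to 37.6). The order was the same in the first set (52.2% and 24.7%) and in the second (63.2% and 34.3%), with overlapping intervals in each. IgD-bearing cells had been depleted before the sort. Lck was detected in 59.5% of cells with Ighd and 52.9% of cells without.

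Lck was detected in a larger share of cells with the light zone marker Cd83, to an unequal extent in the sets. Cxcr4 marks germinal centre B cells of the dark zone, where they divide, and Cd83 those of the light zone, where they meet antigen and T cells. Lck was detected in 22 of the 52 cells with Cxcr4 but not Cd83 (42.3%, 28.7 to 56.8) and in 35 of the 53 with Cd83 but not Cxcr4 (66.0%, 51.7 to 78.5). In the first set these shares were 43.3% and 78.8%, and in the second 40.9% and 45.0%, with overlapping intervals in each, and the difference between the sets was not tested. The rho of Cd83 with Lck was 0.30 in the first set and -0.07 in the second. Of the 10 ranked light zone genes, 8 had a positive mean rho with Lck, among them Nfkbia (0.13 and 0.13) and Egr1 (0.12 and 0.04). Traf1 (-0.21 and -0.13) and Icam1 (-0.02 and -0.14) went the other way. Cd2 was detected in 44.2% and 30.2% of the same cells, with overlapping intervals, and since Cd2 was selected on a zone score this order supports nothing. The ranked genes of the dark zone list had a median mean rho of 0.08 with Cd2 and 0.01 with Lck, with Sema4b called upward with Cd2 (0.16 and 0.23). Those of the light zone list had -0.02 and 0.05, with 0 called. Given the same selection, the values of Cd2 with the zone lists, Sema4b included, support nothing either.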

How the data were processed

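RNA of 182 single cells was sequenced as 75-base paired-end reads, per the series' design text. The deposited table gives a normalized signal per gene symbol and cell, on a linear scale. TopHat2 2.0, Cufflinks 2.2, Cuffdiff and the mm10 build are named in the submitters' processing notes. The sources used here give no base unit, annotation or normalization, so no count model was used. All 182 columns were used, as 1 group. Depth is unknown, which leaves intervals to count cells only.

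Lck, Cd2 and the gene lists were chosen with earlier results of these data known. Detection meant a value of at least 1. Shares have exact Clopper-Pearson 95% intervals (SciPy 1.17.1). Spearman's rho was taken within each set and averaged, and the 10 highest and 5 lowest genes with rho of the same sign in both sets were named, with list genes and up to 3 genomic neighbours a side. No test across cells was run, no cells were clustered and no doublet caller was applied. The lists covered T cell (4), natural killer, myeloid, plasma cell, B cell, signalling, zone, division and heavy chain genes. Of the plasma cell list, 6 genes were measured, with a median of 19.2% of cells, and 0 were called with either member. A few genes of the lists are counted but not reported here by name. Transcript sequences and coordinates came from GENCODE for GRCm38. The code of the ranking was run on shuffled values with strong planted relations, which checks the code and not the relations named here. Alternatives changed the threshold, the cells, the gene filter, the size of rho and a term for the number of genes found.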

Additional observations from a re-analysis of the deposited data

How the results depend on the processing

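Shares moved with the threshold. Lck was found in 34.6% of cells at a value of at least 5, 28.6% at 10 and 67.0% above its lowest value in the set, and Cd2 in 25.8% and 18.1% at 5 and 10. The count of genes related to Lck, 39, became 67 with genes in at least 5% of cells of each set and 22 at 20%, 269 with rho of at least 0.1 and 7 at 0.2, and 77 with a term for the number of genes found, 29 of them among the 39. For Cd2, 156 became 94 at 20% of cells, 472 with rho of at least 0.1 and 49 at 0.2. The ratio of cells with both genes ran from 0.839 to 0.993 under the alternatives, beside 0.905 with an interval of 0.636 to 1.23. That interval includes 1, so the ratio has no settled direction. The rho of Lck with Cd2 stayed negative under each alternative run. The 30 named genes were picked as extremes with the same sign in both sets, so changes of sign were unlikely from the start. Of 90 values over them, 0 changed sign and 1 moved, which is therefore no measure of stability. The moved value was Ppp3ca with Cd2, at 0.18 pooled over all cells against a mean of 0.36 within sets. Pooling was an alternative chosen after seeing the data. The cause of these moves was not tested.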
